A study of Homo sapiens with 8 samples.

Results

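NF1, NRAS, ARAF, BRAF, SOS1, SOS2, RASA1 and RASA2 are 8 of the 11431 genes with measured splicing in this series of JSL1 cells, a monoclonal T cell line derived from Jurkat leukaemia cells. They were taken by gene name, with every splicing event that the deposited tables list for them. The study asked which exons depend on CELF2, an RNA-binding protein that controls splicing, in resting and in stimulated T cells. There were 8 libraries of polyadenylated RNA in 4 groups of 2: PMA-treated cells depleted of CELF2, PMA-treated control cells, unstimulated cells depleted of CELF2 and unstimulated control cells. PMA, a phorbol ester, was used at 20 ng/mL over 48 hours. Depletion relied on lentivirally integrated hairpins that doxycycline induces. All groups came from the same monoclonal line. The sources used here do not state what the control cells carried or whether they received doxycycline.

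Each event is a local splicing variation (LSV), the set of alternative junctions that leave 1 exon (a source LSV) or enter 1 exon (a target LSV). The share of a junction is the authors' expected percentage of that LSV's splicing that uses it. Shares are pooled over the libraries of a group, so that replicate error and read depth are unknown. Their measure of error is the posterior probability that a share changed by at least 20 percentage points between depleted and control cells. Shares, expected changes and posterior probabilities are all values of the authors' deposited tables. An LSV is called changed here where that probability reached 0.95 in any junction. The labelled T cell origin could not be checked. Of 9 T cell genes, 7 had LSVs in each table, among them CD3E, LCK and ZAP70, and CD2 and CD28 had none. An LSV needs alternative junctions, so its absence does not show that a gene was silent. LSVs were listed for 11039 genes with PMA and 10965 without, so their presence is no mark of a T cell. The tables hold no expression levels, so the depletion of CELF2 itself could not be checked.

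Ras proteins such as NRAS are switches that signal when bound to GTP. SOS1 and SOS2 are exchange factors that load Ras with GTP, recruited to receptors by the adaptor GRB2. NF1 (neurofibromin), RASA1 and RASA2 are GTPase-activating proteins that turn Ras off. ARAF and BRAF are kinases that active Ras recruits and that start the MEK and ERK cascade. In T cells the pathway lies downstream of the antigen receptor, and PMA engages it by mimicking diacylglycerol. NF1 has an alternative exon, 23a, inside the domain that acts on Ras, and neurofibromin that contains it is known as the less active form on Ras. CELF and Hu proteins have been described as repressors of exon 23a in other cells.

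The results turn mainly on 2 in-frame cassette exons, so their sequences are shown first. NF1 exon 23a lies on the plus strand at chr17:29579956-29580018 (hg19) between exons of 136 and 159 nucleotides. It has 63 nucleotides, or 21 codons, with 0 in-frame stop codons. The SOS1 exon lies on the minus strand at chr2:39216411-39216455 (hg19), between exons of 265 and 119 nucleotides, in the stretch that encodes the C-terminal region through which SOS1 binds GRB2. It has 45 nucleotides, or 15 codons, again with 0 in-frame stops. The sequences are from GENCODE 29 transcripts (GRCh38), matched by the lengths of these exons and their neighbours. In that build exon 23a is at chr17:31252938-31253000 and the SOS1 exon at chr2:38989270-38989314. Capitals mark the alternative exon, or the first 30 bases of the alternative last exon of NF1, and lower case marks 30 bases of each neighbouring exon.
NF1 with exon 23a: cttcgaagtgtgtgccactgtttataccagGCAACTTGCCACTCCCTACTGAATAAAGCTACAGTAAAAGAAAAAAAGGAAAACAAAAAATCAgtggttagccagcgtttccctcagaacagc
NF1 without exon 23a: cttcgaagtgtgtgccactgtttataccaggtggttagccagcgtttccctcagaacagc
NF1 joined to the alternative last exon: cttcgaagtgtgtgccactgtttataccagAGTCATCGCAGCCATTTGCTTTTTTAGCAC
SOS1 with the exon of 45 nucleotides: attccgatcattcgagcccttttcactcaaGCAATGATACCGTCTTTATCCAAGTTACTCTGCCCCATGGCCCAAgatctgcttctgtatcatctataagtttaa
SOS1 without it: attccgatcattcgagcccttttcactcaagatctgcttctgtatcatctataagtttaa

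CELF proteins bind UGU-containing RNA, so TGT was counted on the transcript strand of these letters. There were 0 in exon 23a and 0 in the SOS1 exon. Among distinct GENCODE exons of the same length, 1327 of 2419 with 63 nucleotides (54.9%) and 782 of 1876 with 45 nucleotides (41.7%) hold at least 1. In the spliced transcript, the 30 bases of the exon before exon 23a hold 3, counting overlaps, and the 30 of the exon after it hold 0. For the SOS1 exon the 30 bases of the exon before hold 0 and the 30 of the exon after hold 1. These bases of the neighbouring exons are also present where the alternative exon is skipped. The introns beside the exons were not searched.

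A change on CELF2 depletion was called in 1 gene of the 8, NF1, at 1 place, exon 23a. SOS1 lay just under the threshold with PMA, and the count of called genes would be 2 at a threshold of 0.9 with PMA, or in either table at an expected change of 20 points. Depleted cells included the exon far more than control cells did, both with PMA and without it. In the authors' deposited table with PMA, 2 of 89 LSVs of the 8 genes were called (2.25%), against 1.87% of all LSVs. Without PMA 2 of 87 were called (2.3%), against 0.985% of all LSVs. Counted by gene, 1 of 8 (12.5%) was called in each table, against 10.6% of all genes with PMA and 6.2% without. With PMA these shares were near the background and without PMA above it, but each rests on 1 event: in both tables the called LSVs were the source and the target LSV of the same exon, which share its skipping junction.

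**Figure D1:**
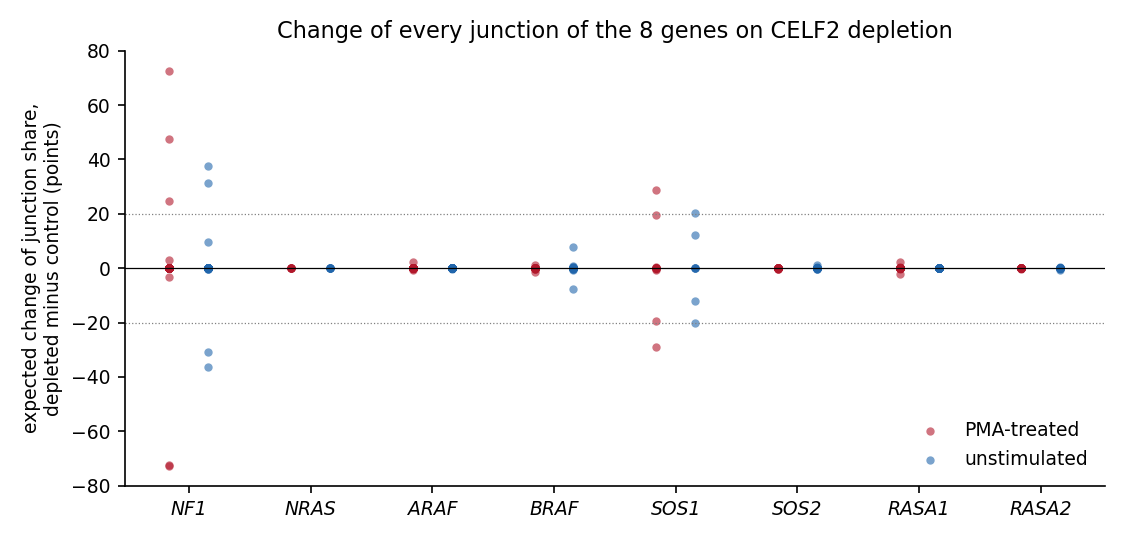
Expected change of the share of every junction of the 8 genes, CELF2-depleted minus control cells in percentage points, from the authors' deposited tables, with a point per junction, PMA-treated cells in red and unstimulated cells in blue. Points beyond the dotted lines at 20 points belong to NF1 and SOS1.

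Most LSVs of these genes had small expected changes, with SOS1 the main exception outside NF1. The largest expected change in an LSV was under 1 point in 81 of 89 LSVs of the 8 genes with PMA (91%), against 76.4% of all LSVs. Without PMA it was under 1 point in 80 of 87 (92%), against 81.6% of all LSVs. The median largest change was 0.000937 points for the 8 genes and 0.0168 points for all LSVs with PMA, and 0.00106 and 0.00735 points without. In 58 of the 84 LSVs listed in both tables a single junction held at least 95% in all 4 groups. Of the 92 LSVs listed in either table, 62 included a junction that the authors marked as outside their annotation. Shares over all LSVs are not given for these counts, so they are not shown to be particular to these genes.

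At the NF1 exon upstream of exon 23a, 4 junctions competed. The junction into exon 23a took 58.7% in PMA-treated depleted cells and 12.3% in PMA-treated control cells. Without PMA it took 68.8% in depleted and 38.1% in control cells. The authors' deposited tables give an expected change of 47.6 points with PMA (posterior probability 1) and 31.4 points without (posterior probability 0.989). Depleted cells thus used this junction as the main one in both states.

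The skipping junction, which joins the exons on either side, took 13.7% in PMA-treated depleted cells and 84.2% in PMA-treated control cells. Without PMA it took 11.0% in depleted and 41.1% in control cells. Its expected change in the authors' deposited tables was -72.3 points with PMA (posterior probability 1) and -30.9 points without (posterior probability 0.994). Skipping was thus the main form in PMA-treated control cells, close to inclusion in unstimulated control cells and minor in both depleted groups.

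The third junction leads to an acceptor upstream of exon 23a, at position 29576973. In GENCODE this acceptor opens a last exon of 4338 nucleotides that runs over exon 23a without splicing. Read in frame from the upstream exon, it adds 8 codons before a stop codon. It took 27.4% in PMA-treated depleted cells and 3.2% in PMA-treated control cells, against 20.2% in unstimulated depleted cells and 19.8% in unstimulated control cells. The authors' deposited tables give an expected change of 24.9 points with PMA (posterior probability 0.955, just past the threshold) and 0.0119 points without (posterior probability 5.2e-06). The low group was therefore the PMA-treated control cells alone, while the other 3 groups lay between 19.8% and 27.4%. The fourth junction, into a minor exon further downstream, stood at 2.5%, the lowest share the tables hold, in all 4 groups.

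**Figure D2:**
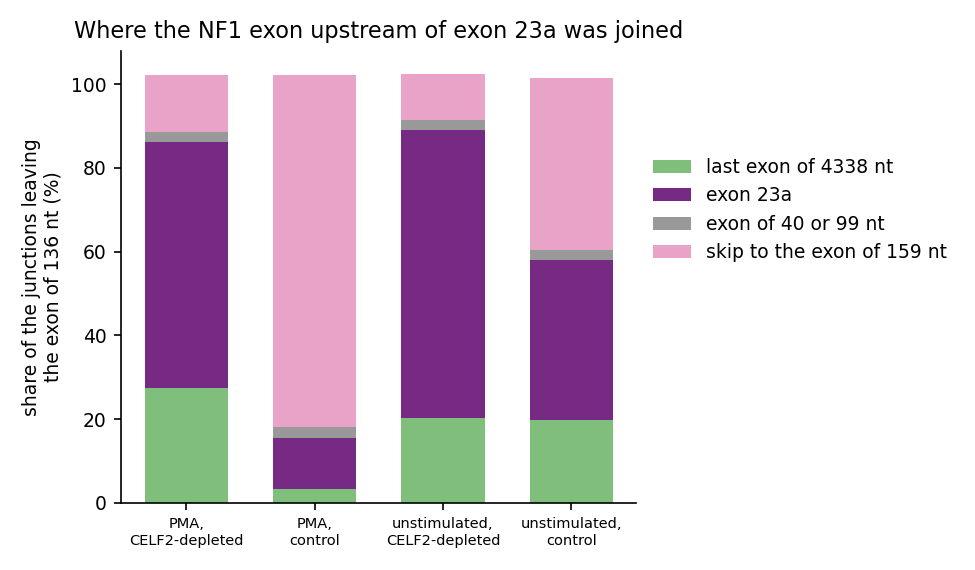
Shares of the 4 junctions leaving the NF1 exon of 136 nucleotides in each group, in percent of that LSV, stacked in the order they lie along the gene from the bottom up. The skipping share is 84.2% in PMA-treated control cells and between 11.0% and 41.1% in the other groups, and the stacks slightly exceed 100% because the authors' shares do.

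The downstream exon gives a second view of the same event. Of the junctions entering it, the one from exon 23a took 81.6% in PMA-treated depleted cells and 10.8% in PMA-treated control cells, and 86.2% and 49.5% in unstimulated depleted and control cells. Its expected change in the authors' deposited tables was 72.6 points with PMA (posterior probability 1) and 37.6 points without (posterior probability 0.999). The skipping junction mirrored it, with 18.0% and 88.8% in PMA-treated depleted and control cells, and 13.6% and 49.1% in unstimulated depleted and control cells.

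To compare the views, inclusion was taken as the inclusion share over inclusion plus skipping in each LSV, and averaged. It was 81.5% in PMA-treated depleted cells and 11.8% in PMA-treated control cells, a difference of 69.7 points. In unstimulated cells it was 86.3% in depleted and 49.2% in control cells, a difference of 37.1 points. The source and target LSVs differed by 0.2 to 2.1 points in a group, far less than the groups differed. The larger depletion difference with PMA, by 32.6 points, came with the lower inclusion of the control cells: PMA-treated minus unstimulated cells was -4.8 points in depleted cells and -37.4 points in control cells. This difference between states was not tested, because the authors quantified the states separately and in pooled libraries. NF1 also has partial pseudogene copies elsewhere in the genome, and the sources used here do not state how reads shared with them were counted.

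Away from exon 23a, NF1 had 1 further LSV with a difference above 10 points between depleted and control cells in the PMA table, and it was not called. From the exon at chr17:29550462-29550585 splicing reached either of 2 acceptors 3 nucleotides apart, at positions 29552113 and 29552116. The second acceptor took 19.1% in PMA-treated depleted cells and 6.6% in PMA-treated control cells, and 4.9% and 6.0% in unstimulated depleted and control cells. The authors' deposited table with PMA gives an expected change of only 3.16 points (posterior probability 0.0547). In the unstimulated cells an LSV entering the exon at chr17:29683978-29684108 had its main junction at 97.5% in depleted and 87.0% in control cells (expected change 9.71 points, posterior probability 0.0121 in the authors' deposited table). Of the splicing that left the end of exon 23a, at position 29580018, nearly all went to the exon of 159 nucleotides. The share was 97.5% in unstimulated depleted and 97.4% in unstimulated control cells, and the LSV was not listed with PMA. It counts every transcript spliced from that position, whichever acceptor the transcript had entered by.

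Among the exchange factors, SOS1 came closest to a call without reaching it. The junction from its 45-nucleotide exon into the downstream exon took 92.4% in PMA-treated depleted cells and 63.8% in PMA-treated control cells. Without PMA it took 92.6% in depleted and 71.2% in control cells. The authors' deposited tables give expected changes of 28.9 points with PMA (posterior probability 0.922) and 20.2 points without (posterior probability 0.673). The exon was thus near-constitutive in both depleted groups, and skipped in part of the transcripts in both control groups.

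The upstream exon gave smaller differences. The junction into the 45-nucleotide exon took 92.4% in PMA-treated depleted and 71.0% in PMA-treated control cells, with an expected change of 19.4 points in the authors' deposited table (posterior probability 0.638). Without PMA it took 92.5% in depleted and 75.8% in control cells, with an expected change of 12.2 points (posterior probability 0.322). Averaged over both LSVs, inclusion was 92.4% and 67.4% in PMA-treated depleted and control cells, and 92.5% and 73.5% in unstimulated depleted and control cells. The depletion difference was 25.0 points with PMA and 19.0 without, while the views differed by up to 7.2 points. PMA-treated minus unstimulated cells was -0.1 points in depleted cells and -6.1 points in control cells, where the views gave -4.8 and -7.4 points.

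**Figure D3:**
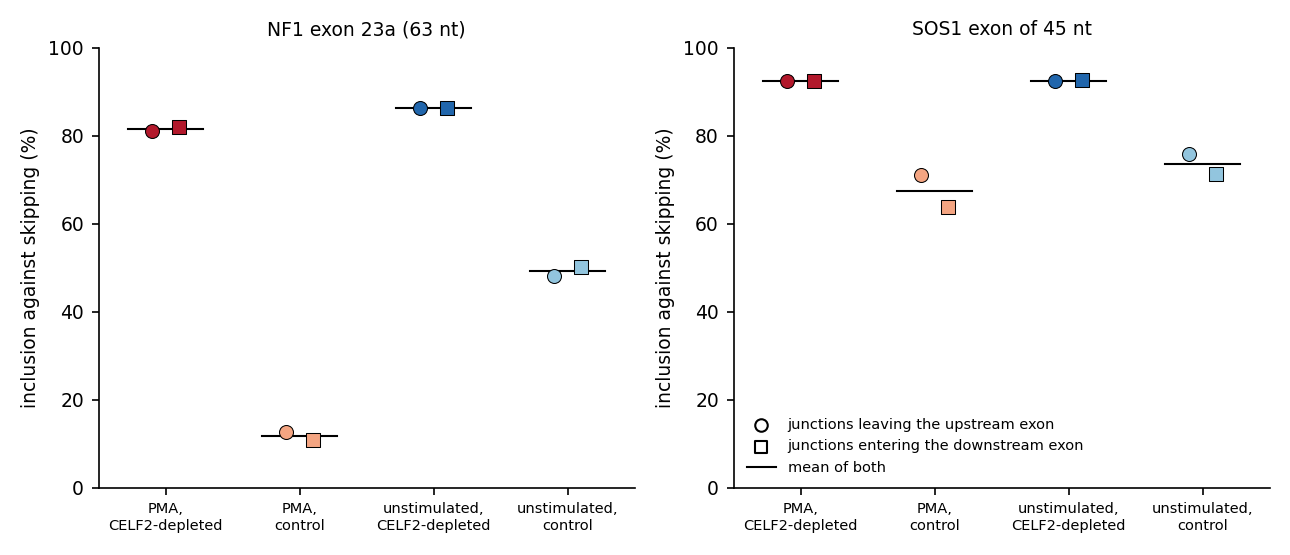
Inclusion against skipping, in percent, of NF1 exon 23a and of the SOS1 exon of 45 nucleotides in each group, with circles for junctions leaving the upstream exon, squares for junctions entering the downstream exon and lines for their mean. Exon 23a has means of 81.5% and 11.8% in PMA-treated depleted and control cells, and the SOS1 exon 92.4% and 67.4%; points are the authors' pooled values, with no error bars available.

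The remaining SOS1 LSVs, and all of SOS2, had low posterior probabilities. Skipping of the SOS1 exon between positions 39237725 and 39237844 took 6.1% in PMA-treated depleted and 10.9% in PMA-treated control cells of the junctions leaving the exon at chr2:39239267-39239489, and 3.2% and 2.6% in unstimulated depleted and control cells. Among the junctions entering the next SOS1 exon, listed with PMA only, the same skipping took 12.5% in depleted and 11.1% in control cells, so the views had opposite directions. SOS2 had 10 LSVs in each table. The highest posterior probability among them was 0.0159, for the unstimulated cells, in an LSV leaving the exon at chr14:50697915-50698276. Its main junction took 94.9% and 93.7% in PMA-treated depleted and control cells, and 95.2% and 84.9% in unstimulated depleted and control cells. With PMA the highest was 9.65e-05 in the authors' deposited table, for a minor junction of SOS2 that took 4.4% in depleted and 7.6% in control cells. Without PMA the same SOS2 junction took 11.4% in depleted and 7.2% in control cells, the opposite direction.

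For the Raf kinases, no LSV of BRAF or ARAF was called, but BRAF had the only junctions outside NF1 that differed by 20 points or more between PMA-treated and unstimulated cells. They concern its penultimate exon, which has 154 nucleotides where it is joined to the distal last exon of 7190 nucleotides, and which lies on the minus strand between positions 140434417 and 140434570 on chromosome 7 (hg19). The exons that encode most of the kinase domain lie upstream, and the choice here alters the C-terminal end of the protein. After the preceding exon of 135 nucleotides, GENCODE transcripts read 58 codons to a stop with both exons, 49 with the penultimate exon skipped and 57 where the transcript ends in it.

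Seen from the distal last exon, the skipping junction took 46.3% in PMA-treated depleted cells and 43.3% in PMA-treated control cells, against 22.7% in unstimulated depleted and 14.6% in unstimulated control cells. PMA-treated minus unstimulated cells was thus 23.6 points in depleted and 28.7 points in control cells. Seen from the exon of 135 nucleotides, the same junction took 24.1% in PMA-treated depleted and 32.8% in PMA-treated control cells, against 17.6% and 12.2% in unstimulated depleted and control cells. Here PMA-treated minus unstimulated cells was 6.5 points in depleted and 20.6 points in control cells. Skipping was higher with PMA in both views and in both kinds of cells, but by amounts that differed widely between the views.

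Inclusion of the BRAF exon against skipping, averaged over the views, was 64.8% in PMA-treated depleted cells and 62.0% in PMA-treated control cells, against 79.8% and 86.6% in unstimulated depleted and control cells. The 2 views of a group differed by 2.4 to 22.2 points. The view from the exon of 135 nucleotides counts all splicing into the penultimate exon, including of transcripts that end there. The view from the last exon counts only transcripts that reach it, so the mean joins 2 different quantities. With PMA, depleted minus control inclusion was 8.7 points in the first view and -3.0 points in the second, opposite directions. Without PMA it was -5.4 and -8.1 points. On CELF2 depletion the largest expected change in these 2 views in the authors' deposited tables was 1.31 points with PMA (posterior probability 0.0142) and 0.829 points without (posterior probability 0.00679).

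**Figure D4:**
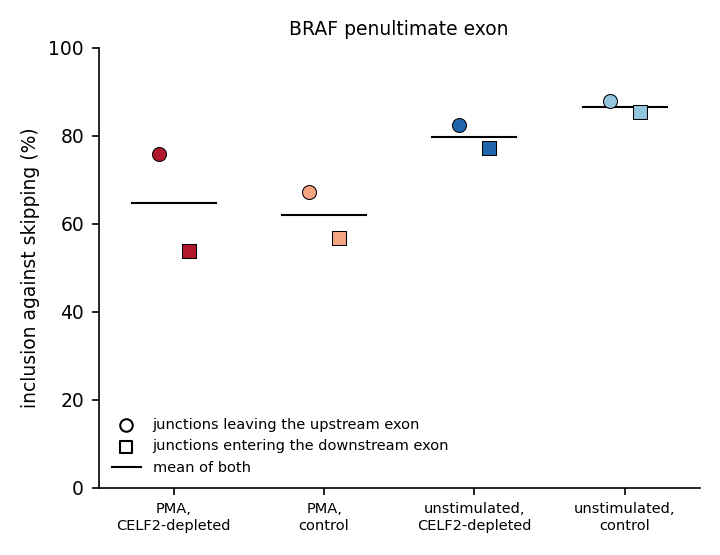
Inclusion against skipping, in percent, of the BRAF penultimate exon in each group, with circles for junctions leaving the upstream exon, squares for junctions entering the distal last exon and lines for their mean. The means are 64.8% and 62.0% in PMA-treated depleted and control cells and 79.8% and 86.6% in unstimulated depleted and control cells, and circle and square lie furthest apart in PMA-treated depleted cells.

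The highest posterior probability of BRAF on depletion was at another place, a minor exon of 80 nucleotides at chr7:140508037-140508116. Among the junctions leaving the preceding exon, it took 8.8% and 9.8% in PMA-treated depleted and control cells, and 2.6% and 14.1% in unstimulated depleted and control cells. In the authors' deposited table the expected change without PMA was -7.76 points (posterior probability 0.0597). The following exon gave 6.2% and 9.7% in PMA-treated depleted and control cells, and 2.5% and 7.0% in unstimulated depleted and control cells. The exon was thus lowest in unstimulated depleted cells in both views.

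ARAF differed from the other genes in the choices that its LSVs listed. An intron was among the choices in 13 of its 16 LSVs, against 1 among the LSVs of the other 7 genes. In most of these ARAF LSVs the intron stood at 2.5% to 2.7% in all 4 groups, at or near the lowest share the tables hold. Several of the introns were counted in both a source and a target LSV. In 14 of the 16 a single junction or intron held at least 95% in all 4 groups. The short stretch at chrX:47430806-47430856, listed as an intron, stood at 97.5%, the highest share the tables hold, in all 4 groups. The junction from position 47430805 to 47430920, which removes the stretch together with bases beyond it, stood at 2.5% in all 4 groups. Whether the stretch is continuous exon sequence or a retained intron was not tested. The ARAF LSV with the highest posterior probability enters the exon at chrX:47422308-47422466. Its main junction took 93.1% in PMA-treated depleted cells and 83.3% in PMA-treated control cells, and 90.8% and 88.3% in unstimulated depleted and control cells. The expected change in the authors' deposited table was 2.36 points with PMA (posterior probability 0.0144). The intron at chrX:47422162-47422307 in the same ARAF LSV was at 4.3% and 8.4% in PMA-treated depleted and control cells, and at 8.9% and 4.7% in unstimulated depleted and control cells, with no common direction.

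Of the GTPase-activating proteins besides NF1, RASA1 was nearly invariant. In 11 of its 13 LSVs a single junction held at least 95% in all 4 groups, and no posterior probability exceeded 1.51e-09. That value belonged to RASA1 with PMA, where an exon at chr5:86640348-86640463 took 2.5% in depleted and 7.6% in control cells of the junctions leaving the exon before it. Without PMA the same RASA1 exon took 2.5% in depleted and 3.0% in control cells.

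RASA2 had 8 LSVs with PMA and 6 without. Its most mixed event was a choice between donor sites 3 nucleotides apart, at positions 141305594 and 141305597 on chromosome 3, where both sites lie in the same exon. Seen from that exon, the first donor took 75.6% and 74.8% in PMA-treated depleted and control cells, and 71.6% and 65.3% in unstimulated depleted and control cells. Seen from the next exon, it took 75.0% and 74.2% in PMA-treated depleted and control cells, and 69.7% and 65.6% in unstimulated depleted and control cells. Both views of RASA2 rest on the same pair of junctions, and the posterior probability did not exceed 0.00429 in the authors' deposited tables. With PMA the highest for RASA2 was 0.000184, in an LSV leaving the exon at chr3:141205889-141206058 whose main junction took 93.1% in depleted and 97.4% in control cells.

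NRAS, the Ras protein of the set, had 3 LSVs in each table, and in each the main junction stood at 97.5% in all 4 groups. Its shares therefore differed by 0 points between groups at the precision of the tables. They lay at the highest or lowest share the tables hold, so changes beyond these limits would not show.

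Between PMA-treated and unstimulated cells, 1 of the 84 LSVs of the 8 genes listed in both tables differed by 20 points or more in depleted cells (1.19%, against 1.86% of all LSVs). In control cells 4 differed by as much (4.76%, against 2.58% of all LSVs). The LSV in depleted cells was the BRAF one at the distal last exon. Those in control cells were both views of NF1 exon 23a and both views of the BRAF penultimate exon, hence 2 events. The median of the largest difference in an LSV was 0.1 points for the 8 genes and 0.5 points for all LSVs, in depleted as in control cells. The largest difference in any gene other than NF1 and BRAF was 7.0 points in depleted cells, in SOS2, and 9.5 points in control cells, in RASA2. These are differences between separately quantified tables, with no test.

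**Figure D5:**
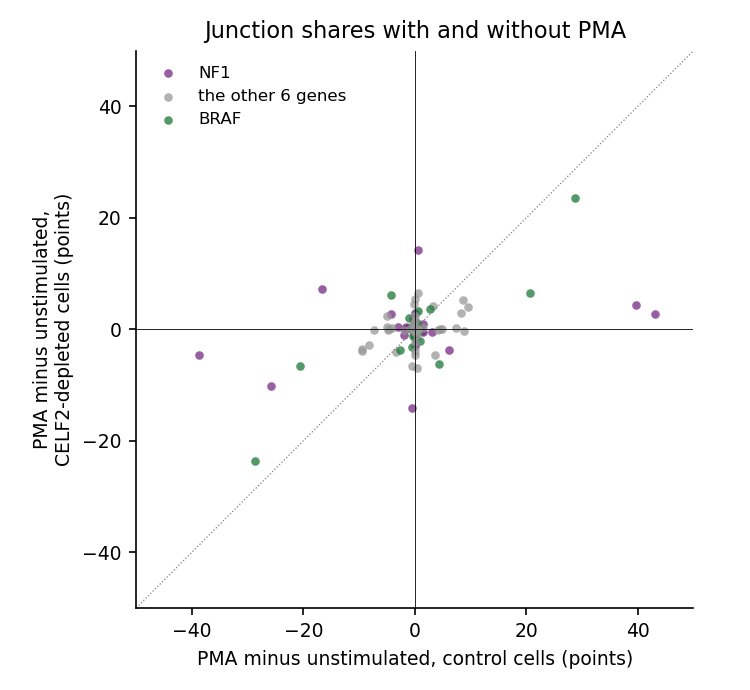
Difference in the share of each junction of the 8 genes between PMA-treated and unstimulated cells, in percentage points, with depleted cells on the vertical axis and control cells on the horizontal axis. NF1 junctions spread along the horizontal axis up to 43.1 points with at most 14.2 points on the vertical one, while the BRAF junctions at the distal last exon lie near the dotted line of equal difference, at 23.6 and 28.7 points.

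Beyond these genes, 73 further gene symbols of the Ras pathway were listed by role from textbook knowledge, with earlier results of these data known. Among them MLLT4 and AFDN name the same gene. Of these, 53 had LSVs with PMA and 48 without. With PMA 5 were called (9.43%, against 10.6% of all genes), and without PMA 2 were called (4.17%, against 6.2%), both shares a little below the background. With PMA the called genes were 4 of 11 Ras effectors and 1 of 13 members of the MEK and ERK group. No member was called with PMA among 4 Ras proteins, 7 exchange factors and adaptors, 11 GTPase-activating proteins and negative regulators, and 7 Raf proteins and scaffolds. Without PMA 1 of 11 effectors was called.

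The called effectors with PMA changed in the share of a listed intron or in the choice of an upstream exon. In MLLT4, which encodes the Ras-binding adhesion protein afadin, an intron listed as retained took 4.0% in depleted and 69.4% in control cells in the authors' deposited table (expected change -67.1 points, posterior probability 1). The competing MLLT4 junctions enter further inside the exon, at position 168314848, so neither removes the listed intron alone. They took 50.9% and 45.5% in depleted cells, and 27.0% and 3.8% in control cells. In RGL2, an exchange factor for Ral proteins, retention of the intron between positions 33264892 and 33264991 on chromosome 6 took 25.0% in depleted and 74.5% in control cells (expected change -50.8 points, posterior probability 1 in the authors' deposited table). In both genes the depleted cells held less of the listed intron.

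In RALGDS, a related Ral exchange factor, a junction from position 135996359 on chromosome 9 took 41.2% in depleted and 2.5% in control cells in the authors' deposited table with PMA (expected change 39.6 points, posterior probability 1). In PIK3CG, a catalytic subunit of phosphoinositide 3-kinase, the main junction took 88.5% in depleted and 60.2% in control cells with PMA (expected change 28.8 points, posterior probability 0.953 in the authors' deposited table, just past the threshold). These LSVs of MLLT4, RGL2, RALGDS and PIK3CG were not listed in the unstimulated table.

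In RPS6KA1, a kinase that ERK activates, a junction from an upstream exon took 48.3% in depleted and 10.1% in control cells with PMA (expected change 39.2 points, posterior probability 1 in the authors' deposited table). Without PMA the RPS6KA1 junction took 43.2% in depleted and 32.4% in control cells and was not called (posterior probability 0.113). PIK3CD, another catalytic subunit, had the main junction of control cells into the exon at chr1:9751525-9751629 at 15.3% in depleted and 77.0% in control cells without PMA (expected change -63.4 points, posterior probability 1 in the authors' deposited table). This PIK3CD LSV was not listed in the table with PMA. Whether these genes respond differently with and without PMA was not tested.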

How the data were processed

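The authors sequenced TruSeq stranded libraries of polyadenylated RNA, per the labels' protocols. STAR 2.5.1b and hg19 are listed in the submitters' processing notes. The deposited tables, 1 with PMA and 1 without, are in the format of VOILA, the output program of MAJIQ, per the file headers; the sources used here give neither its version nor its annotation. Per the file headers they hold, per junction, an expected share of depleted and of control cells as a fraction, the expected change and a posterior probability, all from libraries that the authors pooled by group. Posterior probabilities are not p-values, and no adjustment for multiple LSVs was made. No SD, interval or test across libraries was possible, and the depth is unknown. The sources used here do not state whether the libraries of a group are separate cultures.

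The tables list 91729 LSVs in 11039 genes with PMA and 91480 in 10965 without, and 0 columns of per-sample values were left unused. Shares were turned into percent and run from 2.5% to 97.5%. In 23476 of 23476 junctions with PMA and 17428 of 17428 without whose shares differed by over 10 points, the expected change had the sign of depleted minus control. Where an LSV is not called, the expected change is often much smaller than the difference between its shares. On the minus strand the side of an LSV was taken from its type, as a transcript reads. LSVs of the PMA and the unstimulated table were joined by ID (87517 LSVs).

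The 8 genes, the pathway list and the tests were chosen with earlier results of these data known. All 8 genes are named. An LSV is given in full where it was called, where a share differed by 20 points or more between PMA-treated and unstimulated cells, or where it had its gene's highest posterior probability in a table. Other LSVs given in full (further SOS1, RASA2, NF1 and BRAF junctions) were chosen after their values were seen. Pathway genes are named where called, except 1 that is not reported here. Python 3.11.15, pandas 2.3.3, numpy 2.4.6 and matplotlib 3.10.9 were used, and the counting was tested on simulated data. Alternatives were thresholds of 0.9 and 0.99, expected changes of 10 or 20 points, PMA differences of 10 or 30 points, and leaving out parts of the LSVs.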

Additional observations from a re-analysis of the deposited data

How the results depend on the processing

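The change of NF1 exon 23a inclusion on depletion kept its direction and size: 69.7 points with PMA became 68.3 and 71.1 in the source and target LSV alone, and 37.1 points without PMA became 38.1 and 36.2. With shares of the whole LSV, an alternative chosen after seeing the data, it was 58.6 and 33.7 points. The counts that moved by more than 1.5 times follow.

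The counts of called LSVs of the 8 genes, 2 in each table, became 4 at an expected change of 10 points and 1 without LSVs holding a junction outside the annotation, in source LSVs alone and in target LSVs alone, as fewer LSVs then enter. The count of called genes became 2 at an expected change of 10 or 20 points in each table, and 2 with PMA at a threshold of 0.9; the added gene was SOS1. Called pathway genes, 5 with PMA, became 10 at 20 points, 15 at 10 points, 1 without junctions outside the annotation, 1 in source LSVs and 2 in LSVs listed in both tables. Without PMA the count of 2 became 4, 13, 1, 0 and 1 under the same alternatives. The count of LSVs differing by 20 points between PMA-treated and unstimulated cells, 1 in depleted cells, became 3 at 10 points and 0 at 30 points, without junctions outside the annotation or in source LSVs. In control cells 4 became 2 at 30 points, 1 without junctions outside the annotation, and 2 in source or in target LSVs.

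No paired analysis was possible because the authors' columns are pooled by group and carry no replicate number. For the same reason leaving out each library in turn was not run, and no value here has an error across libraries.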
